A study of Rattus norvegicus with 14 samples.

Results

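The genes described here are Myom1, Myom2, Tcap, Csrp3, Ldb3, Xirp1, Ankrd1, Fhl1, Myoz2 and Lmcd1, which encode proteins of the Z-disc, the M-band and the stretch-sensing apparatus of heart muscle. They were taken by symbol from the platform's probe table, and these 10 genes, with 18 probe sets, stand among 13184 genes and 20223 probe sets on the arrays. Ldb3 had 6 probe sets, Fhl1 3, Ankrd1 2 and each other member 1, and the brightest stood for its gene. The Z-disc anchors the thin filaments and the ends of titin at the borders of the sarcomere, and the M-band cross-links the thick filaments at its middle through the myomesin family. Both structures also hold LIM-domain and ankyrin-repeat proteins that sense stretch and can signal to the nucleus. Several of these genes are known to be induced when the heart is loaded, and mutations in several of them are known in inherited heart muscle disease.

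All arrays measured cultured ventricular heart muscle cells of Sprague-Dawley rat pups aged 2 days, freed of much of their non-muscle company by a plating step and kept without serum before treatment. Of the 5 groups, the first received JQ1 and phenylephrine (PE) and was taken at 6 h (3 arrays), and its partner received the vehicle DMSO and PE for that time (2 arrays). A like pair was taken at 48 h, with 3 arrays of JQ1 and PE, and 3 of DMSO and PE. The last group stood in DMSO for 90 min without PE (3 arrays) and is called unstimulated here. JQ1 inhibits the BET family, readers of acetylated histones that help to drive transcription, and PE (100 µM) is an alpha1-adrenergic agonist that makes such cells enlarge. The labels' protocol has JQ1 given before PE and the design text has the reverse, which leaves their order unknown, and the JQ1 concentration is not given in the sources used here. PE and time in culture differ together between the unstimulated and the PE groups, and there was no group with JQ1 alone. A change with PE against unstimulated cells is therefore one of PE and time in culture together. No label says whether replicate arrays are separate cultures. The p-values therefore rest on the spread among these arrays alone, which may be technical.

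The deposited values are on the log2 scale, 1 for each probe set and array. Differences between groups were tested with limma over all 13184 genes, and a gene was called at a Benjamini-Hochberg adjusted p under 0.05. Fold changes are on the log2 scale with their standard error (SE) unless a fold is named, and the log2 level of 1 gene is not set against that of another. Over all 13184 genes, each by its brightest probe set, r between arrays of 1 group was 0.998 to 0.999. Cardiac myocyte markers were bright in every group, with none of 10 below a dim limit of 6.23, the 30th percentile of gene means, and all 10 members also lay above it in every group. The fibroblast list of 9 markers averaged 9.95 to 9.98 per array in JQ1 with PE at 48 h against 11.29 to 11.36 in DMSO with PE at 48 h, and 11.04 to 11.07 in JQ1 with PE at 6 h against 11.46 to 11.51 in DMSO with PE at 6 h. All 9 fell with JQ1 at 48 h and 6 at 6 h, and none lay below the dim limit. Smooth muscle and pericyte markers, 7 in all with 1 below the dim limit in every group, averaged 8.71 to 8.78 in JQ1 with PE at 48 h against 9.83 to 9.88 in DMSO with PE. At 6 h they averaged 9.14 to 9.18 in JQ1 with PE against 9.72 to 9.77 in DMSO with PE. The 6 macrophage and leukocyte markers averaged 6.02 to 6.06 in JQ1 with PE at 48 h against 6.46 to 6.52 in DMSO with PE. At 6 h these 6 averaged 6.54 to 6.63 against 6.96 to 7.17. Of them 3 fell at 6 h and 2 at 48 h, and 0 rose. In each of these groups but DMSO with PE at 6 h, 3 lay below the dim limit. The 10 cardiac myocyte markers averaged 12.99 to 13.02 in JQ1 with PE at 48 h against 13.31 to 13.32 in DMSO with PE, and 13.25 to 13.28 in JQ1 with PE at 6 h against 13.37 to 13.40 in DMSO with PE. They did not move as 1: with JQ1 3 rose and 5 fell at 48 h, and 1 rose and 4 fell at 6 h. The median log2 change of these 10 was -0.06 at each time. At 48 h Tnni3 was -1.55 and Mb -1.51, while Pln was 0.27. In RNA of a mixed culture, fewer cells of a type and less RNA per cell cannot be told apart. The part of these shifts in the results that follow was not tested.

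With DMSO and PE, most of these genes were higher than in unstimulated cells. At 6 h 7 of 10 rose and 3 (Myom1, Myom2 and Myoz2) fell, where 18.3% of all genes rose and 18.9% fell. At 48 h 9 rose and 1 (Myom2) fell, where 21.4% of all genes rose and 22.6% fell. The median log2 change of the 10 genes was 0.58 at 6 h and 0.61 at 48 h, beside 0.01 for all genes at each time. The members were chosen with earlier results of these data known, so counts and medians beside all genes are a description, not a test. Smooth muscle and pericyte markers averaged 9.26 to 9.34 per array in unstimulated cells, 9.72 to 9.77 at 6 h of PE and 9.83 to 9.88 at 48 h. Of these 7 markers, 4 rose and 2 fell at 6 h, and 5 rose and 1 fell at 48 h. Of 9 fibroblast markers 6 fell and 1 rose (Thy1, 1.45 ± 0.08) at 48 h. The list then averaged 11.29 to 11.36 with PE against 11.48 to 11.49 in unstimulated cells. Of 6 macrophage and leukocyte markers 5 fell and 0 rose at 48 h, with means of 6.46 to 6.52 with PE against 6.83 to 6.92 in unstimulated cells. Of 10 cardiac myocyte markers 2 rose and 4 fell at 6 h, and 3 rose and 5 fell at 48 h. The myocyte list averaged 13.40 to 13.43 in unstimulated cells, 13.37 to 13.40 at 6 h of PE and 13.31 to 13.32 at 48 h. The part of these shifts in the PE results was not tested.

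JQ1 split the same genes into separate courses. At 6 h 6 were higher in JQ1 with PE than in DMSO with PE (Tcap, Csrp3, Ldb3, Xirp1, Fhl1 and Lmcd1), 3 were lower (Myom1, Myom2 and Myoz2) and Ankrd1 was not called. Of all genes 25.5% rose and 28.8% fell in this comparison, with a median of 0.00 against 0.16 for the 10. At 48 h 2 rose (Tcap and Ldb3), 6 fell (Myom1, Myom2, Myoz2, Csrp3, Ankrd1 and Lmcd1) and Xirp1 and Fhl1 were not called, where 30% of all genes rose and 29.6% fell. The median over the 10 was -0.27 at 48 h, beside 0.02 over all genes. The late call of Ankrd1 was lost under repeated quantile normalization and under centring, and Fhl1 was called as a rise under centring. Alternatives gave 7 to 8 members called at 48 h. Most genes were called at each time, 54.3% at 6 h and 59.6% at 48 h, so a call by itself sets no member apart. Changes of at least 2-fold were rarer, at 4.95% of genes at 6 h and 7.44% at 48 h, and 5 members reached that size at 6 h (Myom1, Tcap, Xirp1, Myoz2 and Lmcd1) and 2 at 48 h (Myom1 and Myom2). The difference between the JQ1 effects at 48 h and 6 h was called in 8 members, above 0 in Ldb3 and Myoz2 and below 0 in Myom2, Csrp3, Xirp1, Ankrd1, Fhl1 and Lmcd1, where 20.4% of all genes lay above and 18.3% below. The calls of Ankrd1 and Fhl1 in this difference were lost under some scalings, and alternatives gave 6 to 8 members. JQ1 arrays had lower medians than DMSO arrays, and centring every array on its median raised the JQ1 effect of every gene by 0.10 at 6 h and 0.11 at 48 h. The share of rises among called genes was then 61.9% in place of 47.0% at 6 h, and 65.2% in place of 50.4% at 48 h.

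**Figure D1:**
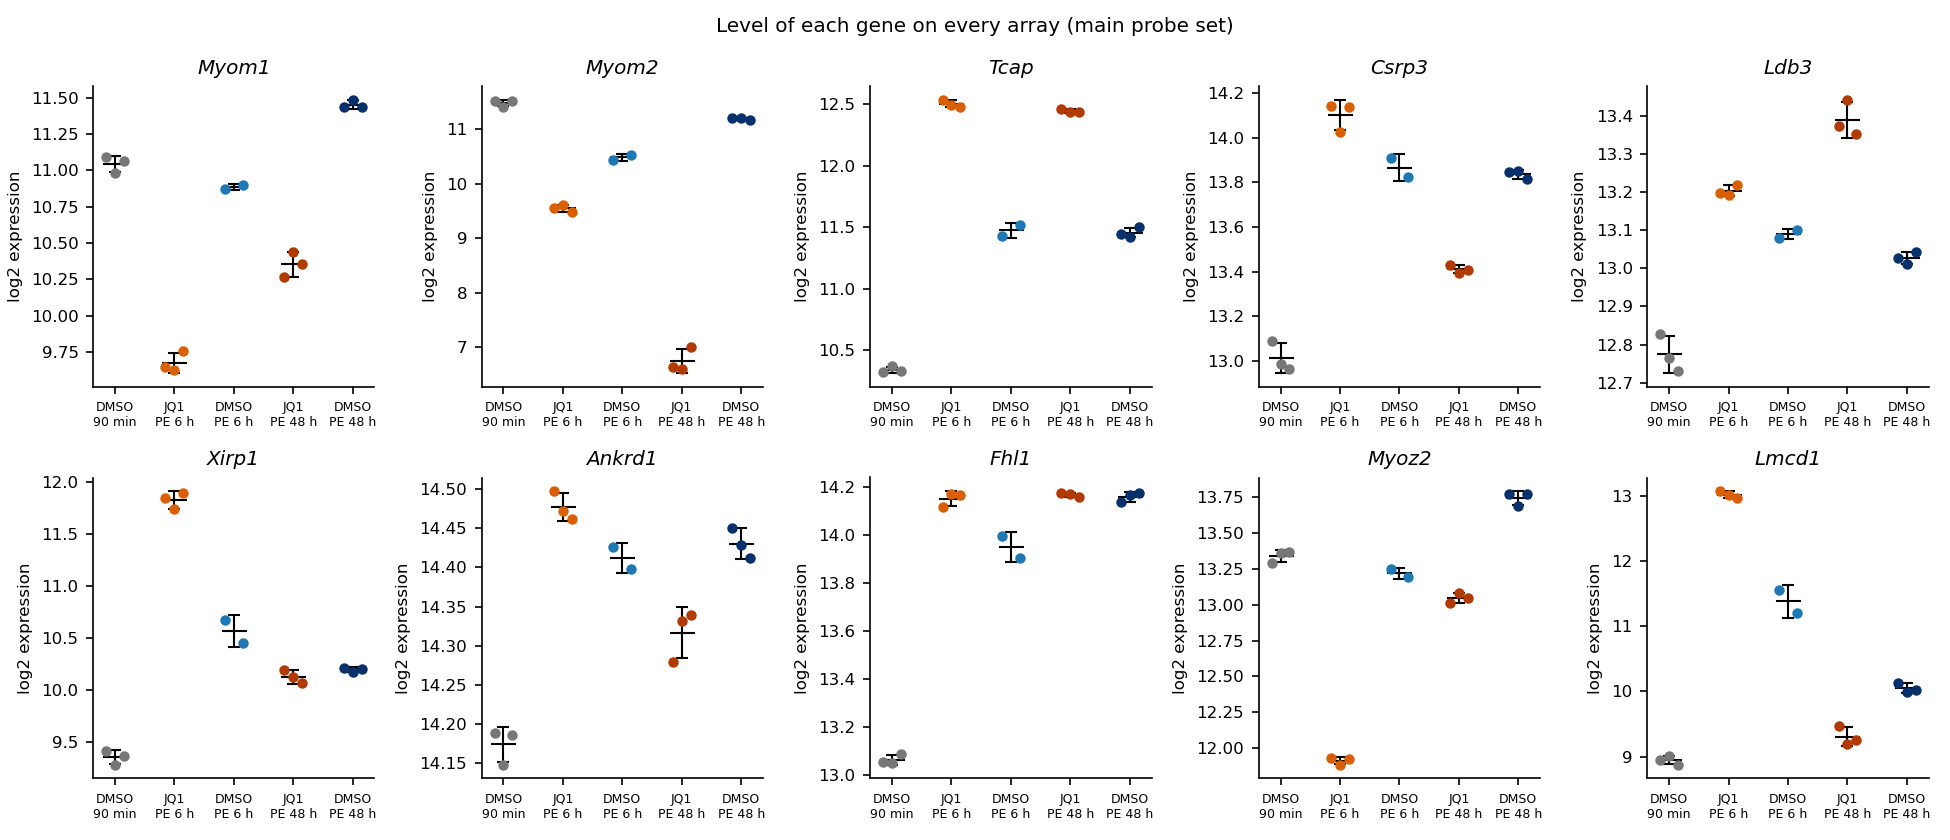
Log2 level (vertical axis) of each of the 10 genes on every array, by group, with 1 panel a gene and its own vertical scale; points are arrays, and bars are the group mean ± SD (n = 3, or 2 for DMSO with PE at 6 h). Myom2 stands at 6.60 to 7.0 in JQ1 with PE at 48 h, below every other array, and Lmcd1 at 12.97 to 13.08 in JQ1 with PE at 6 h, above every other array.

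The M-band pair fell with JQ1 at both times, and the later loss of Myom2 was the deepest among the members. Myom1 encodes myomesin, which ties titin and myosin together at the M-band. Its log2 level was 9.65, 9.63 and 9.76 in JQ1 with PE at 6 h against 10.87 and 10.90 in DMSO with PE at 6 h. At 48 h it was 10.27, 10.44 and 10.35 in JQ1 with PE against 11.43, 11.49 and 11.43 in DMSO with PE, and the unstimulated arrays had 11.09, 10.98 and 11.06. Every JQ1 array lay below every DMSO array at each time. The fall was 2.31-fold at 6 h (-1.21 ± 0.06, adjusted p = 2.97e-09 in limma) and 2.14-fold at 48 h (-1.10 ± 0.05, adjusted p = 1.06e-09). The difference between those effects was 0.11 ± 0.08 and was not called (adjusted p = 0.284), with a 95% interval of -0.05 to 0.27. Without JQ1, Myom1 was 0.41 ± 0.05 higher at 48 h of PE than unstimulated. Its call at 6 h of PE (-0.16 ± 0.06, adjusted p = 0.04) was lost when any of 4 of the 5 arrays concerned was left out, with an adjusted p of 0.0895 to 0.171, and the gene's arrays at 6 h nevertheless all lay below the unstimulated ones.

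Myom2 encodes M-protein, a relative of myomesin found in fast and heart muscle M-bands. It had 9.55, 9.61 and 9.48 in JQ1 with PE at 6 h against 10.44 and 10.53 in DMSO with PE at 6 h. At 48 h it had 6.64, 6.60 and 7.0 in JQ1 with PE against 11.19, 11.20 and 11.17 in DMSO with PE, and 11.52, 11.41 and 11.51 in unstimulated cells. The 3 late JQ1 arrays were thus the lowest of all 14 and stood close above the dim limit of 6.23. The fall with JQ1 was 1.91-fold at 6 h (-0.94 ± 0.09, adjusted p = 2.82e-06 in limma) and 21.7-fold at 48 h (-4.44 ± 0.08, adjusted p = 8.80e-13). The late effect minus the early one was -3.50 ± 0.13 (adjusted p = 2.64e-09). Among all genes, its change with JQ1 at 48 h lay at the 0.038 percentile. Myom2 also fell with PE and DMSO, with changes of -0.99 ± 0.09 at 6 h and -0.29 ± 0.08 at 48 h, and it was the one member called lower than unstimulated at both times.

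Within each array, the log2 level of Myom2 minus that of Myom1 follows how far the pair moved apart. Levels of different probe sets are not comparable, so only the shift of this difference between groups is read. This difference averaged -3.60 ± 0.24 in JQ1 with PE at 48 h against -0.26 ± 0.02 in DMSO with PE at 48 h (SD, n = 3 each), a shift of -3.34. The 3 JQ1 arrays and the 3 DMSO arrays did not overlap, and an exact two-sided permutation test gave p = 0.1, the smallest that 3 against 3 allows. At 6 h it averaged -0.13 ± 0.13 in JQ1 with PE (n = 3) against -0.40 ± 0.05 in DMSO with PE (n = 2), a shift of 0.27. Here too the JQ1 and DMSO arrays did not overlap. The exact permutation test gave p = 0.2, where the smallest that 3 against 2 allows is 0.1.

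Myoz2 fell with JQ1 at both times, as Myom1 did. It encodes calsarcin-1, a Z-disc protein that binds alpha-actinin and calcineurin and is known to restrain calcineurin signalling. It had 11.93, 11.88 and 11.92 in JQ1 with PE at 6 h against 13.25 and 13.19 in DMSO with PE at 6 h, and 13.01, 13.08 and 13.05 in JQ1 with PE at 48 h against 13.77, 13.69 and 13.77 in DMSO with PE. Unstimulated arrays had 13.29, 13.36 and 13.37. The fall was 2.48-fold at 6 h (-1.31 ± 0.04, adjusted p = 1.99e-10 in limma) and -0.70 ± 0.04 at 48 h (adjusted p = 5.75e-09), so the late effect was smaller by 0.61 ± 0.06 (adjusted p = 3.99e-06). With DMSO and PE, Myoz2 was 0.40 ± 0.04 higher at 48 h than unstimulated. Its lower level at 6 h of PE (-0.12 ± 0.04, adjusted p = 0.0417) was no longer called when any of 4 of the 5 arrays was left out, with an adjusted p of 0.062 to 0.211. Myom1 and Myoz2 correlated at r = 0.96 over the 14 arrays, which share the same 5 groups.

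Promoter windows from RefSeq (build GRCr8), 250 bases before to 50 after a gene's start, were matched by symbol for 6 of the 10 members. The windows of Myom1 and Myoz2 are shown because this pair moved together across the groups. They lie at chr9:118366896-118367195 on the plus strand and chr2:213852729-213853028 on the minus strand, both written 5′ to 3′ along the gene, with motif matches in capitals.
Myom1: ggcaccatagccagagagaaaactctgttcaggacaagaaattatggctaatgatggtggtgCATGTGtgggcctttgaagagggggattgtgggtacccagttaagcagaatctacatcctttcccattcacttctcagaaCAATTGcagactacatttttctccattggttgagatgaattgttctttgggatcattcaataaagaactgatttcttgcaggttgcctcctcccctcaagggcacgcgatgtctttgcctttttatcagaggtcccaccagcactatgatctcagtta
Myoz2: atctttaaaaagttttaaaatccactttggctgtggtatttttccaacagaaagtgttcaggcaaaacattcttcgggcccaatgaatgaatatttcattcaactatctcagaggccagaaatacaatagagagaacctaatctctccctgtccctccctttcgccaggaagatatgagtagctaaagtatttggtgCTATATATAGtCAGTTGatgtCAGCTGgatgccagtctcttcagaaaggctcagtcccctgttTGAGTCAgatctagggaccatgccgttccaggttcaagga
The letters of 7 motifs were searched on both strands: the E-box CANNTG, the AP-1 motif TGANTCA, the GATA motif AGATAA, the TATA motif TATAAA, the M-CAT motif CATTCC, the CArG box bound by serum response factor, and the MEF2 box. No matches overlapped in the members' windows. Myom1 held only the E-boxes CATGTG and CAATTG, at positions -188 and -108 from the start. Myoz2 held the MEF2 box CTATATATAG at -53, the E-boxes CAGTTG at -42 and CAGCTG at -32, and the AP-1 motif TGAGTCA at 11. Of 33465 rat windows, 72.1% held an E-box, 7.33% the AP-1 motif and 3.29% the MEF2 box. The pair thus shared only the E-box, the most frequent of the motifs searched. These matches are a description of letters, not of binding.

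Tcap and Ldb3 were the members that were higher with JQ1 at both times. Tcap encodes telethonin, the Z-disc cap that joins the ends of titin molecules. It had 12.54, 12.50 and 12.48 in JQ1 with PE at 6 h against 11.43 and 11.52 in DMSO with PE at 6 h. At 48 h it had 12.46, 12.44 and 12.44 in JQ1 with PE against 11.45, 11.42 and 11.50 in DMSO with PE, and unstimulated arrays had 10.32, 10.37 and 10.33. The levels thus formed 3 steps, with unstimulated cells lowest, DMSO with PE between and JQ1 with PE highest, and no array crossed a step. With DMSO and PE, Tcap stood 2.20-fold above unstimulated at 6 h (adjusted p = 1.37e-09 in limma) and 2.17-fold at 48 h. JQ1 raised it a further 1.03 ± 0.04 at 6 h (adjusted p = 7.55e-10) and 0.99 ± 0.04 at 48 h (adjusted p = 1.39e-10). The JQ1 effects differed by -0.04 ± 0.05 (adjusted p = 0.577), with a 95% interval of -0.16 to 0.07. JQ1 with PE stood 4.49-fold above unstimulated at 6 h and 4.31-fold at 48 h.

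Ldb3 encodes ZASP, also called Cypher, a PDZ-LIM protein that binds alpha-actinin and holds the Z-disc together under load. Its brightest probe set had 13.20, 13.19 and 13.22 in JQ1 with PE at 6 h against 13.08 and 13.10 in DMSO with PE at 6 h. The later arrays had 13.37, 13.44 and 13.35 in JQ1 with PE against 13.03, 13.01 and 13.04 in DMSO with PE, and 12.83, 12.77 and 12.73 in unstimulated cells. The rise with JQ1 was 0.36 ± 0.04 at 48 h (adjusted p = 1.76e-06 in limma), larger than at 6 h by 0.25 ± 0.05 (adjusted p = 0.00297). At 6 h it was 0.11 ± 0.04 (adjusted p = 0.0307), and this call was lost whichever of the 5 arrays was left out, with an adjusted p of 0.0512 to 0.123. All 6 Ldb3 probe sets rose with JQ1 at 48 h, from 0.35 for the dimmest (mean log2 level 5.24) to 0.78 for the one with mean level 10.1. The brightest, at 0.36, and the dimmest gave the smallest changes of the 6.

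**Figure D2:**
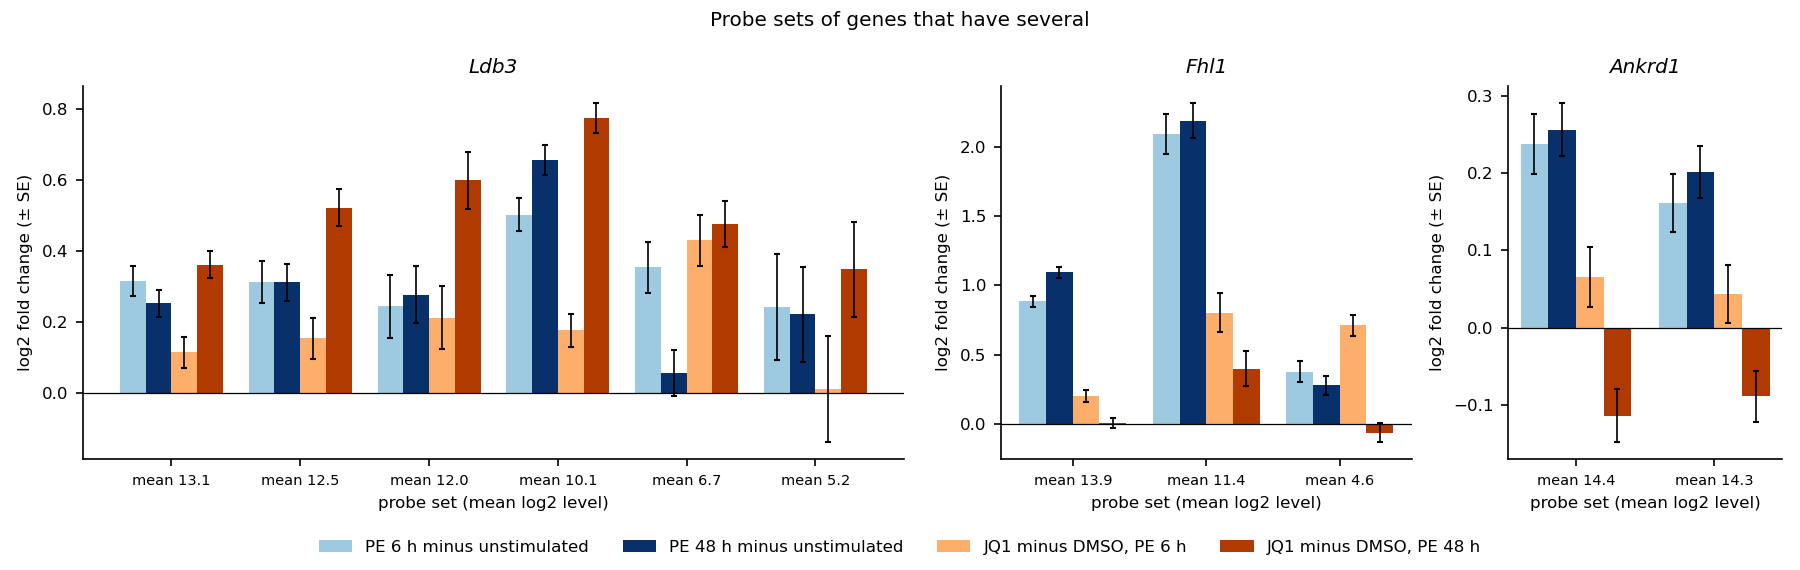
Log2 fold change (vertical axis, coloured bars with ± SE, scale differs between panels) of PE against unstimulated cells and of JQ1 against DMSO, each at PE 6 h and PE 48 h, for each probe set of Ldb3, Fhl1 and Ankrd1, ordered from the brightest at left by mean log2 level (horizontal axis). All 6 Ldb3 probe sets lie above 0 with JQ1 at 48 h, between 0.35 and 0.78.

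Csrp3 was higher with JQ1 early and lower late. It encodes muscle LIM protein, which sits at the Z-disc, is known to shuttle to the nucleus and is studied as a stretch sensor. It had 14.14, 14.02 and 14.14 in JQ1 with PE at 6 h against 13.91 and 13.82 in DMSO with PE at 6 h, and 13.43, 13.39 and 13.41 in JQ1 with PE at 48 h against 13.85, 13.85 and 13.81 in DMSO with PE. Unstimulated arrays had 13.09, 12.99 and 12.96. JQ1 arrays lay above every DMSO with PE array at 6 h and below every one at 48 h, yet above the unstimulated arrays at both times. The JQ1 effect was 0.24 ± 0.05 at 6 h (adjusted p = 0.00141 in limma) and -0.43 ± 0.05 at 48 h (adjusted p = 2.89e-06), a difference of -0.66 ± 0.07 (adjusted p = 8.12e-06). Its highest value came within 0.36 of the top of its array's scale. With DMSO and PE, Csrp3 stood 1.81-fold above unstimulated at 6 h and 1.77-fold at 48 h.

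Ankrd1 encodes CARP, an ankyrin-repeat protein that binds titin in the spring region and is known to accumulate in the nucleus under load. It was the gene nearest the top of the array scale, 0 to 0.37 below the highest value of its own array, and its values spanned only 0.35. It had 14.50, 14.47 and 14.46 in JQ1 with PE at 6 h against 14.43 and 14.40 in DMSO with PE at 6 h, and 14.28, 14.33 and 14.34 in JQ1 with PE at 48 h against 14.45, 14.43 and 14.41 in DMSO with PE. Unstimulated arrays had 14.19, 14.15 and 14.19. With DMSO and PE it was higher than unstimulated by 0.24 ± 0.04 at 6 h and 0.26 ± 0.03 at 48 h. With JQ1 it changed by -0.11 ± 0.03 at 48 h (adjusted p = 0.00742 in limma), a call that was lost under repeated quantile normalization (-0.06, adjusted p = 0.1) and under centring (adjusted p = 0.968). At 6 h the JQ1 effect was 0.07 ± 0.04 and not called (adjusted p = 0.143, 95% interval -0.01 to 0.14), its sign turned under quantile normalization (-0.06), and it was called as a rise under centring (0.16, adjusted p = 0.00483) and in the trended robust fit (adjusted p = 0.0109). The late effect minus the early one was -0.18 ± 0.05 (adjusted p = 0.00952), a call lost under quantile normalization (adjusted p = 0.998) and not made by the other probe set (adjusted p = 0.0625). That probe set, at mean log2 level 14.3, was 0.04 at 6 h and -0.09 at 48 h.

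Fhl1 rose with PE and was called with JQ1 at 6 h and not at 48 h. It encodes a LIM-only protein of the FHL family that binds titin and is studied as a stretch sensor in heart muscle. Its brightest probe set had 14.11, 14.17 and 14.17 in JQ1 with PE at 6 h against 13.99 and 13.90 in DMSO with PE at 6 h. The later arrays had 14.17, 14.17 and 14.16 in JQ1 with PE against 14.13, 14.17 and 14.17 in DMSO with PE, and 13.06, 13.05 and 13.09 in unstimulated cells. The JQ1 and DMSO arrays overlapped at 48 h, at 0.01 ± 0.03 (adjusted p = 0.845 in limma, 95% interval -0.07 to 0.08). At 6 h JQ1 raised it by 0.20 ± 0.04 (adjusted p = 6.04e-04), and the effects differed by -0.19 ± 0.05 (adjusted p = 0.00977). That difference was no longer called under quantile normalization (adjusted p = 0.0558) or centring (adjusted p = 0.0543), and with replicate 2 of the early DMSO and PE group left out (adjusted p = 0.0551). This probe set came within 0.34 of the top of the array scale. A dimmer probe set of Fhl1, at mean level 11.4, gave larger changes against unstimulated cells and with JQ1, of 2.09 and 2.19 for PE at 6 h and 48 h, and of 0.80 (adjusted p = 4.19e-04) and 0.40 (adjusted p = 0.0179) for JQ1. Its change between 6 h and 48 h of PE was smaller, at 0.09, and not called (adjusted p = 0.688). Its late JQ1 effect minus the early one was -0.40 and not called (adjusted p = 0.135). The third probe set, below the dim limit at mean level 4.63, gave 0.38 and 0.28 for PE, and 0.71 and -0.06 for JQ1. With DMSO and PE, the brightest one stood 1.85-fold above unstimulated at 6 h and 2.13-fold at 48 h.

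Ldb3 and Fhl1 were the members whose windows held the CArG box, which 1.64% of all windows held. Ldb3 (chr16:9924630-9924929, minus strand) had CCATTTATGG at -52 and the AP-1 motif TGAGTCA at -112. The first of 2 Fhl1 windows (chrX:139638246-139638545, plus strand) had CCTAAAATGG at -102, the TATA motif on the other strand and 3 E-boxes. No window of a member held the M-CAT motif, which 14.2% of windows held.

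By their brightest probe sets, Xirp1 and Lmcd1 gave the largest rises of the members at 6 h, both with PE and with JQ1, although the dimmer Fhl1 probe set rose further with PE (2.09) than Xirp1. Xirp1 encodes Xin, an actin-binding repeat protein of the intercalated disc, where heart muscle cells join end to end. It had 11.85, 11.73 and 11.90 in JQ1 with PE at 6 h against 10.68 and 10.46 in DMSO with PE at 6 h, and 10.20, 10.12 and 10.07 in JQ1 with PE at 48 h against 10.22, 10.17 and 10.21 in DMSO with PE. Unstimulated arrays had 9.42, 9.29 and 9.37. The early JQ1 arrays were the highest of all 14, while at 48 h the JQ1 and DMSO arrays overlapped. With DMSO and PE, Xirp1 stood 2.31-fold above unstimulated at 6 h and 1.79-fold at 48 h. JQ1 raised it a further 2.39-fold at 6 h (1.26 ± 0.07, adjusted p = 1.37e-08 in limma) and the effect at 48 h was -0.07 ± 0.06 (adjusted p = 0.366, 95% interval -0.21 to 0.07), with its sign turned to 0.04 under centring. The effects differed by -1.33 ± 0.09 (adjusted p = 3.34e-07).

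Lmcd1 encodes a LIM and cysteine-rich domain protein, also called dyxin, that is known as a co-repressor of GATA6 and has been tied to calcineurin signalling in mouse heart. It had 13.08, 13.01 and 12.97 in JQ1 with PE at 6 h against 11.56 and 11.21 in DMSO with PE at 6 h. At 48 h it had 9.48, 9.20 and 9.25 in JQ1 with PE against 10.14, 9.997 and 10.02 in DMSO with PE, and unstimulated arrays had 8.95, 9.01 and 8.88. Levels with JQ1 were above those with DMSO at 6 h and below them at 48 h, with no overlap at either time. With DMSO and PE, Lmcd1 stood 5.41-fold above unstimulated at 6 h (2.44 ± 0.10, adjusted p = 4.21e-09 in limma) and 2.15-fold at 48 h. JQ1 raised it a further 3.11-fold at 6 h (1.64 ± 0.10, adjusted p = 3.43e-08) and lowered it 1.67-fold at 48 h (-0.74 ± 0.09, adjusted p = 1.03e-05). The difference of -2.38 ± 0.14 (adjusted p = 5.38e-08) was larger in size than that of every other member but Myom2. In JQ1 with PE its level at 48 h was 13.1-fold lower than at 6 h (-3.71 ± 0.09), and at 48 h it stood 0.36 ± 0.09 above unstimulated.

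The windows of this pair, whose levels correlated at r = 0.96 over the 14 arrays, lie at chr8:128634954-128635253 on the minus strand (the second of the 3 annotated Xirp1 starts) and at chr4:146948743-146949042 on the plus strand (Lmcd1). Capitals again mark motif matches.
Xirp1: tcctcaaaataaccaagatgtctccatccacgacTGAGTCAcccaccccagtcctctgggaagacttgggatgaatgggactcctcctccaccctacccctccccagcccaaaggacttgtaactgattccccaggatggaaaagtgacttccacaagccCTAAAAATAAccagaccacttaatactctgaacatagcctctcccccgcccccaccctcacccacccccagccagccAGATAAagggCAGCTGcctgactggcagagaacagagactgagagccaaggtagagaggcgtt
Lmcd1: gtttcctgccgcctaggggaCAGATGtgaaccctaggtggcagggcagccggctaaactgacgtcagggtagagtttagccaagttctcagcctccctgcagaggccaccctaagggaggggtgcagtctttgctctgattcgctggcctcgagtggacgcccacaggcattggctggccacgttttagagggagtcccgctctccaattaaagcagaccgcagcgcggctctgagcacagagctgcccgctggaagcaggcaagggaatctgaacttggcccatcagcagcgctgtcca
Xirp1 held the AP-1 motif TGAGTCA at -216, the MEF2 box CTAAAAATAA at -90, the GATA motif AGATAA at -13 (in 11.6% of all windows) and the E-box CAGCTG at -3. Lmcd1 held only the E-box CAGATG at -230. The pair shared no motif other than the E-box in these windows. The third Xirp1 window overlaps the second and holds the same 4 matches.

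**Figure D3:**
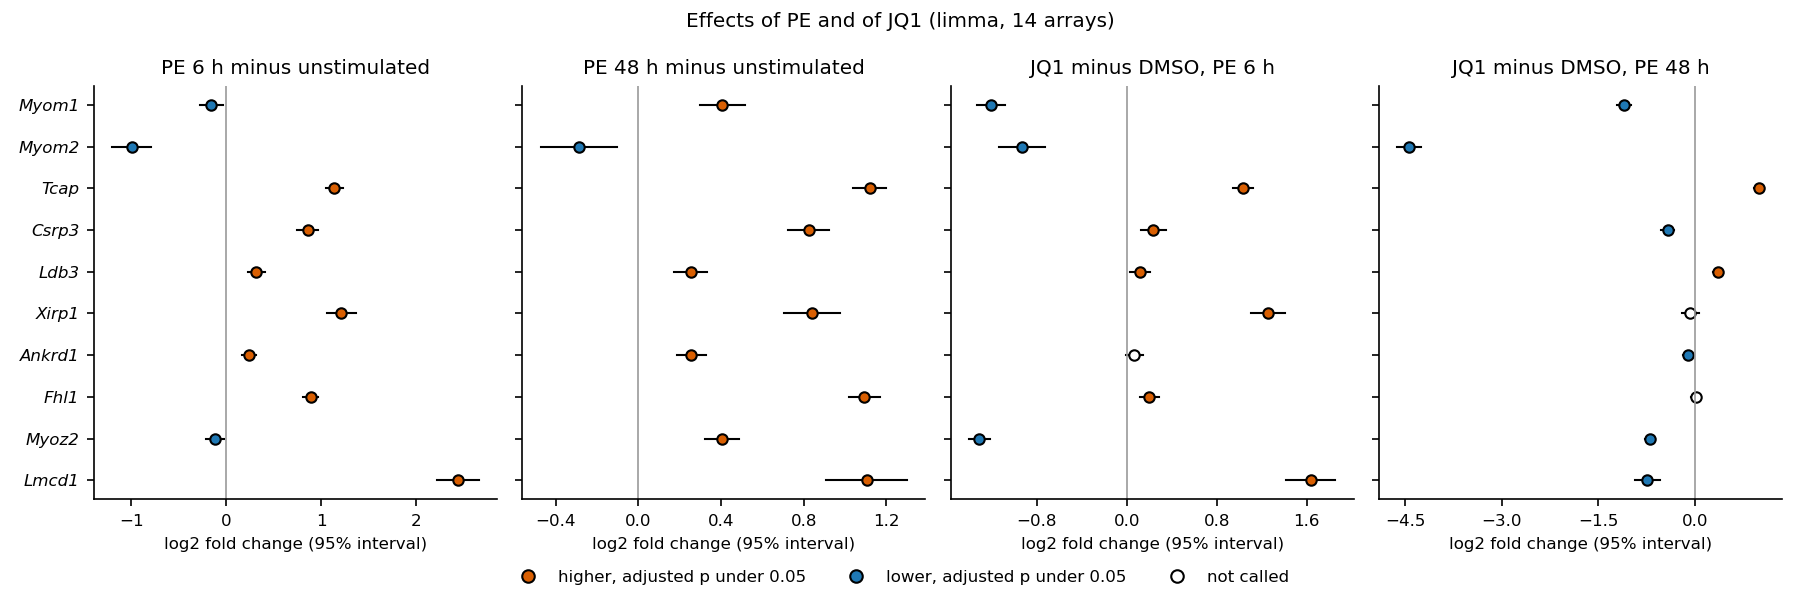
Log2 fold change (horizontal axis, bars are 95% intervals, scale differs between panels, open points not called) of each of the 10 genes in the comparisons of PE with unstimulated cells and of JQ1 with DMSO at each time. Myom2 reaches -4.44 with JQ1 at 48 h, and Lmcd1 2.44 with PE and 1.64 with JQ1 at 6 h.

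**Figure D4:**
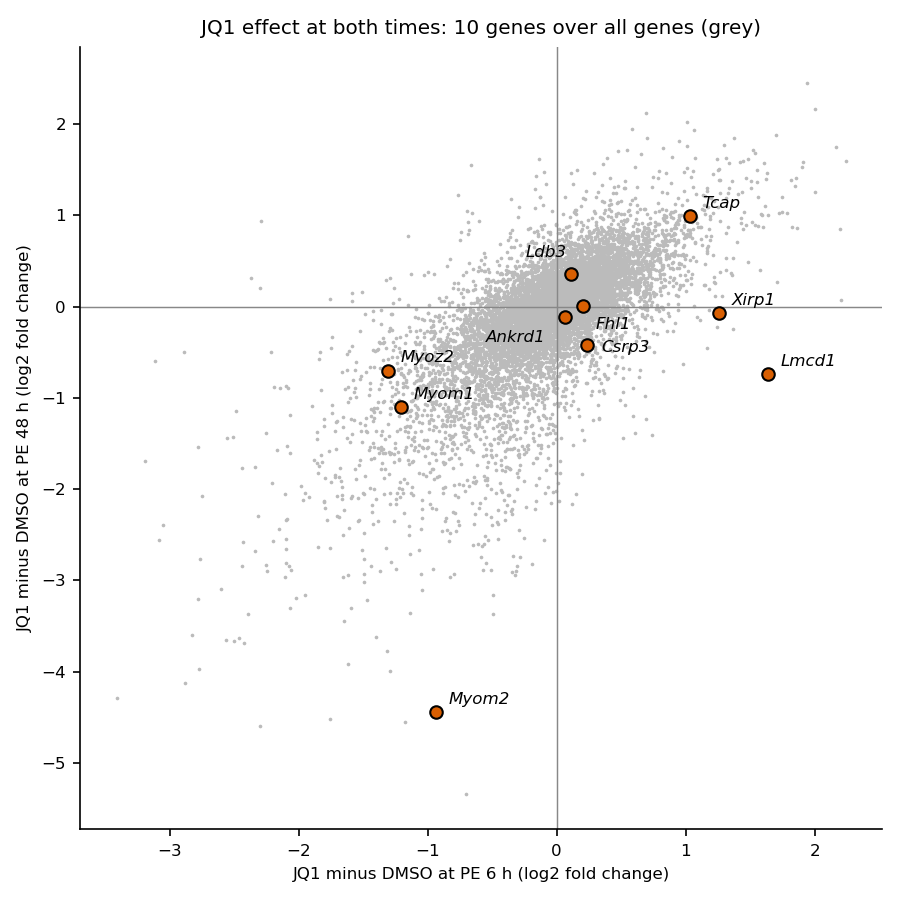
JQ1 minus DMSO log2 change at PE 6 h (horizontal axis) against PE 48 h (vertical axis) for the 10 genes (orange points, named) and all other genes (grey points). Csrp3 and Lmcd1 lie right of 0 and below 0, Tcap and Ldb3 above 0 on both axes, and Myom1, Myom2 and Myoz2 below 0 on both.

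Set against unstimulated cells, with which the PE comparisons share their arrays, JQ1 with PE at 6 h had 7 members higher and 3 lower, where 30.9% of all genes rose and 31.7% fell. At 48 h it also had 7 higher and 3 lower, where 31.6% of all genes rose and 29.2% fell. With every array centred on its median, the share of rises among called genes was 61.7% in place of 49.3% at 6 h, and 66.7% in place of 52.0% at 48 h. The lower members were Myom1, Myom2 and Myoz2 each time. Myom2 stood 3.81-fold below unstimulated at 6 h and 26.5-fold below at 48 h, and Myoz2 was -1.43 ± 0.04 at 6 h and -0.30 ± 0.04 at 48 h. Lmcd1 stood 16.8-fold above unstimulated at 6 h (4.07 ± 0.09), and Xirp1 5.53-fold above (2.47 ± 0.06). With DMSO, 4 members were higher and 2 lower at 48 h of PE than at 6 h, where 16.3% of all genes rose and 18.4% fell. Those higher were Myom1 (0.57 ± 0.06), Myom2 (0.71 ± 0.09), Myoz2 (0.53 ± 0.04) and Fhl1 (0.21 ± 0.04), and those lower Xirp1 (-0.37 ± 0.07) and Lmcd1 (-1.33 ± 0.10). With JQ1, 3 were higher and 5 lower at 48 h than at 6 h, where 27.2% of all genes rose and 26.4% fell. Myom1 (0.68 ± 0.05), Myoz2 (1.14 ± 0.04) and Ldb3 (0.19 ± 0.04) were higher at 48 h, and Myom2 (-2.80 ± 0.08), Csrp3 (-0.69 ± 0.05), Xirp1 (-1.70 ± 0.06), Ankrd1 (-0.16 ± 0.03) and Lmcd1 were lower. Myom2 thus stood higher at 48 h than at 6 h with DMSO, and lower with JQ1.

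Among further genes of the Z-disc, of 25 listed and 20 measured, 13 rose and 1 fell with PE at 6 h, and 16 rose and 0 fell at 48 h. Beside these counts and those of the lists that follow, 18.3% of all genes rose and 18.9% fell with PE at 6 h. At 48 h of PE 21.4% rose and 22.6% fell. JQ1 raised 25.5% and lowered 28.8% at 6 h, and 30% and 29.6% at 48 h. The lists, like the members, were chosen with earlier results of these data known, so these shares give no test of them. Flnc, the actin cross-linker filamin C, rose by 1.18 ± 0.05 at 6 h, Mypn, which encodes myopalladin, by 1.42 ± 0.05, and Pdlim1 fell by 0.37 on the log2 scale. Des, the intermediate filament desmin, rose by 0.70 ± 0.03 at 48 h. With JQ1 8 rose and 8 fell at 6 h (median 0.01), and 4 rose and 13 fell at 48 h (median -0.28). Flnc, like Lmcd1, was higher with JQ1 at 6 h (1.17 ± 0.05) and lower at 48 h (-0.46), while Nexn was -0.60 ± 0.04 at 6 h. At 48 h Pdlim3 was -1.75 ± 0.04, Mypn -1.09 ± 0.04 and Filip1 -0.97 ± 0.06, and Pdlim5 was 0.38 ± 0.04. The Z-disc list thus held more falls than rises with JQ1 at the later time, beside a median of 0.02 over all genes.

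The list for titin, the M-band and thick filament upkeep had 16 genes, 12 of them measured, and with PE 1 rose and 6 fell at 6 h and 2 rose and 5 fell at 48 h. With JQ1 2 rose and 6 fell at 6 h (median -0.08), and 5 rose and 7 fell at 48 h (median -0.23). Trim54, a microtubule-binding ubiquitin ligase of the sarcomere, was -2.78 ± 0.07 at 6 h and -3.20 ± 0.06 at 48 h. Lrrc39, known as the M-band protein myomasp, was -2.56 ± 0.06 at 6 h and -1.43 ± 0.05 at 48 h, and the cytoskeletal linker Obsl1 was -1.21 ± 0.08 and -1.34 ± 0.07. In the other direction, Smyd1 was 0.74 ± 0.06 at 6 h and Mybpc3, the thick filament's myosin-binding protein C, 0.65 ± 0.04 at 48 h.

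The stretch sensing and costamere list had 22 genes, 20 of them measured. With PE 10 rose and 1 fell at 6 h, and 16 rose and 2 fell at 48 h. Rcan1, a calcineurin target and inhibitor, rose by 0.94 ± 0.06 at 6 h and 0.57 at 48 h, and Itgb1bp2, the integrin-binding protein melusin, by 0.85 ± 0.05 at 48 h. With JQ1 7 rose and 8 fell at 6 h (median 0.01), and 4 rose and 14 fell at 48 h (median -0.32). Lims2, an adaptor of the integrin-linked kinase complex, was -1.58 ± 0.05 at 6 h and -2.07 ± 0.05 at 48 h, and Itgb1bp2 was -1.49 ± 0.06 and -1.86 ± 0.05. Rcan1 was -1.13 ± 0.05 and Ilk -0.62 ± 0.04 at 48 h. Wwtr1 was 0.69 ± 0.06 at 6 h and Tln2, a talin, 0.54 ± 0.05 at 48 h. Of thin filament end and intercalated disc genes, 12 listed and 10 measured, 6 rose and 2 fell with PE at each time. With JQ1 2 rose and 5 fell at 6 h (median -0.10), and 4 rose and 5 fell at 48 h (median -0.06). Nrap, an actin-binding anchor of forming myofibrils, rose by 1.12 ± 0.07 with PE at 6 h and was -0.91 ± 0.06 with JQ1 at 48 h, and Lmod2, a thin filament elongation factor, was 0.74 ± 0.04 with JQ1 at 6 h. Fibroblasts and smooth muscle cells also express several genes of these lists, and their own markers were lower with JQ1 at 48 h, by the levels given for the marker lists.

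**Figure D5:**
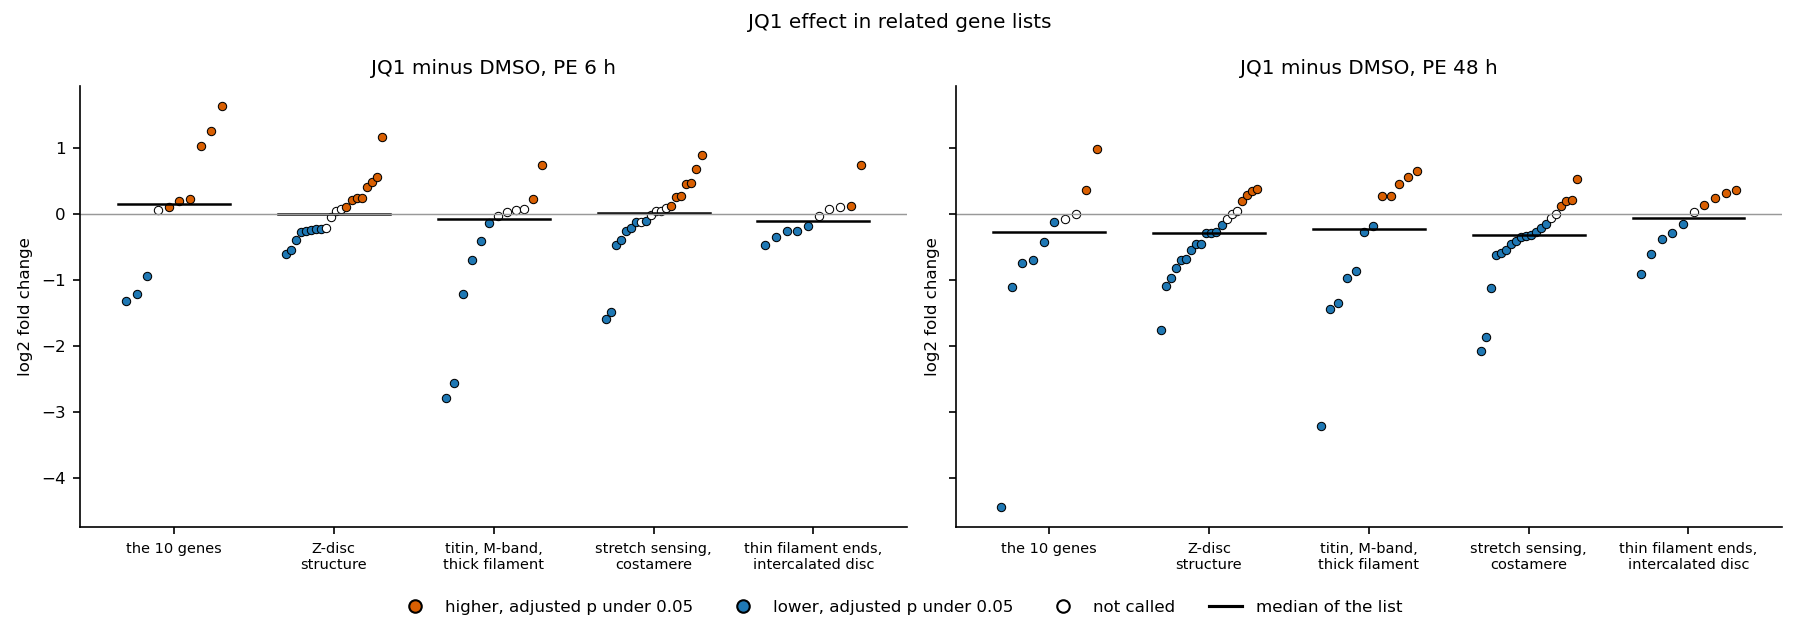
JQ1 minus DMSO log2 change at PE 6 h and PE 48 h (vertical axis) for the 10 genes and for the measured genes of the 4 further lists, 1 point a gene, coloured by whether it was called higher, lower or not, with a line at each list's median. The medians of the Z-disc list are 0.01 at 6 h and -0.28 at 48 h, and those of the stretch sensing list 0.01 and -0.32.

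The genes whose levels ran most like each member's over the 14 arrays were found by Pearson's r among 9228 genes above the dim limit, as a description of arrays that share the same 5 groups. St6gal1 (r = 0.996) and Lrrc4b (0.993) ran most like Myom1, Car14 (0.997) and Paqr6 (0.995) like Myom2, and Zbtb4 (0.995) and Mkks (0.993) like Myoz2. Rfwd3 (0.989) ran most like Tcap, Nap1l5 (0.985) like Ldb3 and Tmbim1 (0.984) like Fhl1. Csrp3 had Otud1 (0.993), Ankrd1 had Csrp3 itself (0.976), Xirp1 had Arid5a (0.991), and Lmcd1 had Cd55 (0.996) and Flnc (0.992). Among the members the closest pairs were Csrp3 with Ankrd1, Myom1 with Myoz2, Xirp1 with Lmcd1, and Tcap with Ldb3 (0.938), and the most opposed were Myom2 with Ldb3 (r = -0.90) and Xirp1 with Myoz2 (-0.82).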

How the data were processed

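The deposited table held 1 log2 value for each probe set on each of 14 Affymetrix rat arrays; the scale was inferred from the values. What the authors did for background, summarization and normalization is not given in the sources used here, and limma is the only tool that the submitters' processing notes list. Of 20223 probe sets, 18510 had 1 gene symbol, 305 several and 1402 none, and 6 were controls. Symbols were updated through RefSeq (GRCr8), where 18461 matched by gene identifier, 1 by accession and 48 kept the platform's name. The brightest probe set by mean stood for each of 13184 genes. One mean per group was fitted to all 14 arrays in limma 3.58.1 under R 4.3.3 (lmFit, then eBayes, 9 residual degrees of freedom), two-sided, with Benjamini-Hochberg adjustment over all genes and a threshold of 0.05. The fit was tested on simulated data. The number of arrays limits the precision.

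The named genes are the 10 members, and from each further list up to 4 genes of lowest adjusted p among those that moved as most of the list did, and 1 that moved the opposite way, with the value of such a gene in other comparisons beside it. The members and lists were chosen with earlier results of these data known. Alternatives were a replicate block, repeated quantile normalization, centring, the mean of a gene's probe sets, leaving out dim genes, a trended robust fit, a fit of the compared groups only, and leaving out each array.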

Additional observations from a re-analysis of the deposited data

Results flagged for a closer look

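The JQ1 effect at 48 h of PE differed from that at 6 h in 8 of the 10 genes by limma's test of the difference itself, adjusted over all 13184 genes. Of the 10, 2 lay above 0 and 6 below, where 20.4% of all genes were called above 0 and 18.3% below. In Myom2 the late effect was -4.44 and the early one -0.94, a difference of -3.50. In Lmcd1 the effects were -0.74 and 1.64, with opposite signs and a difference of -2.38. Csrp3 also turned its sign, with -0.43 late and 0.24 early, a difference of -0.66. In Xirp1 the difference was -1.33, between an effect of -0.07 at 48 h that was not called and one of 1.26 at 6 h. Myoz2 was lower at both times and less so at 48 h, with a difference of 0.61. Ldb3 was higher at both times, with a difference of 0.25. The early call of its brightest probe set was lost whichever of the arrays concerned was left out. Its probe sets with mean level 6.74 and 5.24 did not call the difference (adjusted p = 0.77 and 0.234). The smallest differences were those of Ankrd1 (-0.18) and Fhl1 (-0.19), whose brightest probe sets lie near the top of the array scale. The Ankrd1 difference was not called under quantile normalization (adjusted p = 0.998) or by its other probe set (adjusted p = 0.0625). That of Fhl1 was not called under quantile normalization or centring, or without 1 of the arrays, and over all alternatives 6 to 8 genes were called. The Fhl1 probe set with mean level 11.4 did not call the difference (-0.40, adjusted p = 0.135). The one with mean level 4.63, below the dim limit, did (-0.78, adjusted p = 7.08e-05).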

How the results depend on the processing

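Of 1190 values of the members under alternatives, 1151 kept their direction and their side of the threshold, 26 lost a call, 4 gained one and 9 changed sign, of which 1 also lost its call and 2 gained one. Under repeated quantile normalization, Ankrd1 turned to -0.13 for 48 h against 6 h of PE, to -0.061 for JQ1 at 6 h and to 0.00020 for the difference of JQ1 effects, which lost its call (adjusted p = 0.998), while the first of these was called (adjusted p = 0.00867). Under centring, Xirp1 turned to 0.042 for JQ1 at 48 h. With the mean of its probe sets, Fhl1 turned to -0.39 for 48 h against 6 h of JQ1 with PE and was called (adjusted p = 7.26e-05). The cause was not tested. Leaving out 1 array gave ranges that cross 0 for differences that were not called. These were -0.058 to 0.025 for Tcap and -0.073 to 0.013 for Csrp3 (48 h against 6 h of PE), and for Fhl1 -0.0028 to 0.016 (JQ1 at 48 h) and -0.0017 to 0.026 (48 h against 6 h of JQ1 with PE). With the replicate block, 8 members in place of 10 were called for PE at 6 h, without Myom1 (adjusted p = 0.0819) and Myoz2 (adjusted p = 0.0897). It changed no other member's call. Replicate numbers showed no sign of pairing: deviations of same-numbered arrays correlated at a median of -0.04 (-0.27 to 0.18), and 2 of 14 arrays correlated best with their own number. Deviations within a group of 2 or 3 arrays depend on each other, so this check cannot exclude pairing. Fhl1 at 48 h against 6 h of PE lost its call with the mean of its probe sets (adjusted p = 0.472). Centring added calls of Ankrd1 for JQ1 at 6 h (adjusted p = 0.00483; 0.0109 in the trended robust fit) and of Fhl1 for JQ1 at 48 h (adjusted p = 0.0331).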
